A study of Mus musculus with 2 samples.

Results

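The Mir148 and Mir152 family consists of 3 mouse microRNA genes, Mir148a, Mir148b and Mir152, out of 2202 microRNA genes counted in the series. Members were taken by name: the rows whose Ensembl identifier maps in the GENCODE M21 annotation to one of the 3 symbols, with reads of the sense strand only. All 3 were found, and all 3 had at least 10 reads over both libraries, the minimum for the comparison between libraries. The series holds 2 small RNA libraries, with inserts under 30 nt, labelled as gastrocnemius, a calf muscle, of male B6CASTF1/J pups of 4 days of age. B6CASTF1/J mice come from a cross of the C57BL/6 and CAST strains. The libraries carry biological replicate numbers 2 and 1, from animals numbered 4 and 3 under a shared donor identifier, and form 1 group with no second condition, so values are given per library and log2 ratios are replicate 2 over replicate 1.

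MicroRNAs are short RNAs that repress messenger RNAs by pairing mainly through their seed, bases 2 to 8 counted from the 5′ end. The 3 members share that seed and so are expected to share many targets. The family is known for repressing Dnmt1, the maintenance DNA methyltransferase. In cultured mouse myoblasts miR-148a has been reported to promote differentiation by repressing Rock1, a kinase of the actin cytoskeleton. The mature 3p sequences are shown first because they carry the shared seed, printed in capitals.
mmu-miR-148a-3p: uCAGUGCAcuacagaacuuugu
mmu-miR-148b-3p: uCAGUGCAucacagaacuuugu
mmu-miR-152-3p: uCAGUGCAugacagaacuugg
Sequences are from RefSeq on GRCm38.p6, where all 3 members were matched. Among 1738 mature mouse microRNA sequences in that table, these 3 were the only ones with this seed.

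Outside the seed the 3p sequences differ at few bases. From miR-148a-3p to miR-148b-3p there are 2 substitutions, C9U and U10C, with positions counted from the 5′ end. From miR-148a-3p to miR-152-3p there are 3, C9U, U10G and U20G, over the 21 bases that both have. From miR-148b-3p to miR-152-3p there are 2, C10G and U20G. The opposite arms of the hairpins are less alike, and are printed with their own seeds in capitals.
mmu-miR-148a-5p: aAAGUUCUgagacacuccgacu
mmu-miR-148b-5p: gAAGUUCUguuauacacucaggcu
mmu-miR-152-5p: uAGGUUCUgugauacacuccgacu
Mir148a and Mir148b share this 5p seed, and that of Mir152 is another. The counts are per gene and cover the whole hairpin, so reads of the 3p and the 5p arm are not separated.

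The members' sequences differ enough for full-length reads to be told apart. The hairpins are printed with the mature arms in capitals, 5p first and 3p second, to show what a read of each gene can cover.
microRNA 148a: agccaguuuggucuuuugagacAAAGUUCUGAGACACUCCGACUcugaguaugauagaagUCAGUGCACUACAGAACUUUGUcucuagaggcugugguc
microRNA 148b: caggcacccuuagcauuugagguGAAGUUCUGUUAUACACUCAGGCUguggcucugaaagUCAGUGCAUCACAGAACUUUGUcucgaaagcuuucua
microRNA 152: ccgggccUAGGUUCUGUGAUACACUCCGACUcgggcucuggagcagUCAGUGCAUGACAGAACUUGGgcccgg
The longest stretch that the Mir148a hairpin shares with any of 1004 other microRNA hairpins, on either strand, is 15 nt, and lies in Mir148b. For the mature miR-148a-3p and miR-148b-3p the longest shared stretch is 12 nt, and for either of them with miR-152-3p it is 9 nt. A full-length read of 1 member therefore has no exact copy in another hairpin of that table. The rest of the genome was not searched.

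The genes lie on 3 chromosomes, and 2 of them sit in paralogous host genes. Mir148b lies in an intron of Copz1 on the same strand (mm10, chromosome 15, 103285125 to 103285221, plus strand). Mir152 lies in an intron of Copz2, also on the same strand (chromosome 11, 96850393 to 96850465, plus strand). Copz1 and Copz2 encode zeta subunits of the coatomer, the coat of vesicles that move between Golgi and endoplasmic reticulum. Mir148a overlaps no other annotated gene (chromosome 6, 51269812 to 51269910, minus strand). Each of the 3 has a gene of the Nfe2 family of transcription factors as a neighbour, Nfe2l3 at 163 kb from Mir148a, Nfe2l1 at 20.4 kb from Mir152 and Nfe2 at 26.7 kb from Mir148b. No other microRNA gene is annotated within 10000 bp of any member, and no annotated gene overlaps a member on the opposite strand.

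The 2 libraries stand apart from each other, which touches every comparison between them. Replicate 2 held 3073086 sense reads assigned to microRNA genes and replicate 1 held 4458853. Mir206, restricted to skeletal muscle, was counted 101 times in replicate 2 and 652657 times in replicate 1. Mir208a, a microRNA of heart muscle, was counted 29718 times in replicate 2 and 59 times in replicate 1. The 9 skeletal muscle markers summed to 0.479% of microRNA reads in replicate 2 and 14.7% in replicate 1. Mir206 carried this difference, since the other 8 summed to 0.476% in replicate 2 and 0.0906% in replicate 1. Among those 8, the Mir1a and Mir133a genes had at most 156 reads per library. Reads mapping to several places, 45.1% of all reads in replicate 2 and 35.7% in replicate 1, were counted for no gene. How many Mir1a and Mir133a reads were lost in this way was not tested. Of the 9 markers, 8 were tested. In replicate 2, 3 were higher (Mir499, Mir208b and Mir486) and 3 were lower (Mir206, Mir133b and Mir133a-1). Mir133b had 10 reads in replicate 2 and 427 in replicate 1, a log2 ratio of −5.37. It was called with the main scaling and the 2 others, Mir133a-1 with the main one only. The list was not checked for expression in heart, so its higher members do not show skeletal muscle in replicate 2. The 67 genes of the imprinted Dlk1-Dio3 domain held 0.973% of replicate 2 and 32.9% of replicate 1. The library labelled replicate 2 thus held little of the marker that defines its labelled tissue and more than replicate 1 of a heart one, and whether both libraries are gastrocnemius cannot be told from these files. Each mean, SD and ratio over the pair is therefore of the 2 libraries as labelled, which may not be replicates of 1 tissue. Markers of other cell types differed too. The fibroblast list summed to 0.281% in replicate 2 and 0.591% in replicate 1. Mir214 gave 8555 of its 8625 reads in replicate 2 and 25804 of its 26334 in replicate 1. For the liver list the sums were 0.0136% in replicate 2 and 0.0285% in replicate 1. The neural list summed to 0.0471% in replicate 2 and 0.147% in replicate 1, with the 6 Mir9 and Mir124a genes at 0 counted reads in both. Mir9-1, Mir9-2 and Mir9-3 share a mature sequence, and the Mir124a genes were not matched among the RefSeq sequences. As reads mapping to several places were not counted, these 0 counts do not show absence. Mature sequences are also shared among the Mir199a and Mir199b genes of the fibroblast list and the Mir194 copies of the liver list. The same holds for the Mir128, Mir138 and Mir219a copies of the neural list, so the counts of all these genes are uncertain. In replicate 2, white blood cell markers summed to 0.429%, erythroid ones to 0.0979%, endothelial ones to 6.62%, smooth muscle ones to 4.90%, epithelial ones to 0.0587% and pancreatic ones to 0.00488%. In replicate 1 these lists held less, with 0.0793% for white blood cells, 0.0220% for erythroid cells, 2.54% for endothelium, 2.17% for smooth muscle, 0.0223% for epithelium and 0.00170% for pancreas, where Mir216b was at 0 in both libraries. All these shares depend on the total, of which the Dlk1-Dio3 genes (32.9%) and Mir206 (14.6%) took a large part in replicate 1. With the main scaling, Mir126a of endothelium (0.75) and Mir143 (0.54) and Mir145a (0.88) of smooth muscle were not called. Single members went the other way. Mir223 of the white blood cell list was called lower in replicate 2 with the main scaling (−1.16). With the 2 others it stayed negative but was not called (−0.88 with DESeq2 size factors, −0.53 with total reads). Mir217 of the pancreas list had 5 reads in replicate 2 and 17 in replicate 1. Mir200c, like Mir206, was left out of its list after the values were seen. Without it the epithelial list summed to 0.0231% in replicate 2 (711 reads) and 0.0203% in replicate 1 (903 reads).

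Mir148a was the most abundant member in both libraries. Its reads numbered 1071 in replicate 2 and 2740 in replicate 1. In counts per 1000000 microRNA reads (CPM) that is 349 in replicate 2 (95% interval 328 to 370) and 615 in replicate 1 (592 to 638), a mean of 482 ± 188 CPM (SD, n = 2). Intervals are exact Clopper-Pearson intervals and cover counting error only, since PCR copies of 1 molecule are counted as separate reads. Mir148a held rank 99 of the 605 genes with at least 1 read in replicate 2 and rank 106 of 635 such genes in replicate 1.

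Mir152, the member inside Copz2, came second. Its reads numbered 720 in replicate 2 and 1590 in replicate 1, or 234 CPM in replicate 2 (217 to 252) and 357 CPM in replicate 1 (339 to 375), with a mean of 295 ± 86.5 CPM (SD, n = 2). Its ranks were 117 in replicate 2 and 133 in replicate 1. As for Mir148a, the intervals of the 2 libraries did not overlap, with replicate 2 the lower one.

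Mir148b, the member inside Copz1, was the least abundant. With 239 reads in replicate 2 and 357 in replicate 1, its level was 77.8 CPM in replicate 2 (68.2 to 88.3) and 80.1 CPM in replicate 1 (72.0 to 88.8), so the intervals overlapped, and the mean was 78.9 ± 1.62 CPM (SD, n = 2). Its ranks were 163 in replicate 2 and 185 in replicate 1. This closeness depends on the total, of which the Dlk1-Dio3 genes and Mir206 take a large part in replicate 1. With both left out of the totals, Mir148b had 78.5 CPM in replicate 2 (68.9 to 89.2) and 153 CPM in replicate 1 (137 to 169), which do not overlap. Mir148a then had 352 CPM in replicate 2 and 1172 CPM in replicate 1, and Mir152 had 237 CPM in replicate 2 and 680 CPM in replicate 1.

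**Figure D1:**
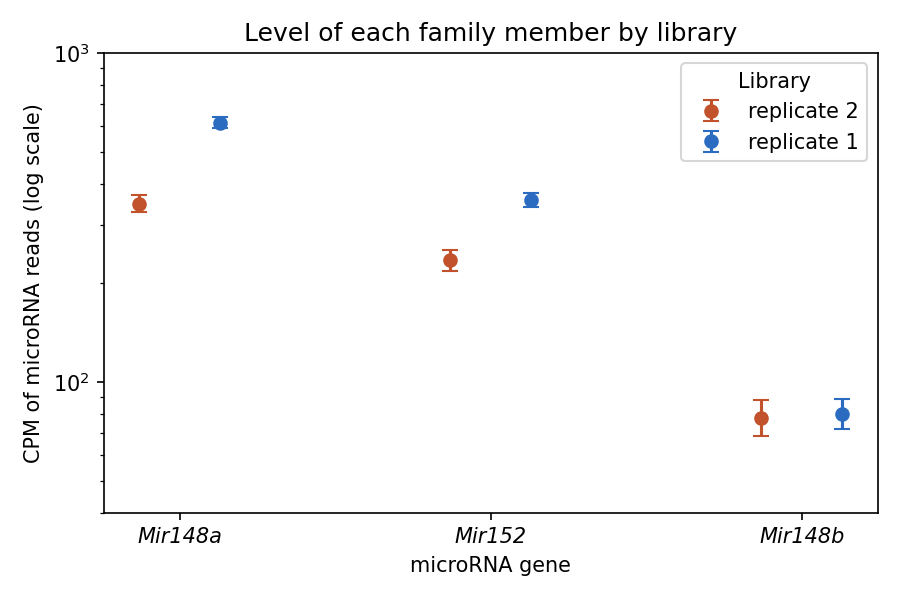
Level of each member in CPM of microRNA reads, on a log scale, with replicate 2 left of replicate 1 and 95% counting intervals as bars. Mir148a and Mir152 sit at 349 and 234 CPM in replicate 2, below their 615 and 357 CPM in replicate 1, while the intervals of Mir148b overlap (77.8 CPM in replicate 2, 80.1 CPM in replicate 1).

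The order Mir148a, Mir152, Mir148b held in both libraries, and neighbours in it did not overlap in their counting intervals. The mature sequences are 21 to 24 nt long and inserts were under 30 nt, so a read can span a whole mature molecule, and counts were compared without dividing by the length of the hairpin, which is 99 nt for Mir148a, 97 nt for Mir148b and 73 nt for Mir152. Reads of Mir148a were 1.49 times those of Mir152 in replicate 2 and 1.72 times in replicate 1. Reads of Mir152 were 3.01 times those of Mir148b in replicate 2 and 4.45 times in replicate 1. The efficiency with which each sequence is captured in a library was not calibrated, so these ratios describe reads and not cellular copies.

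The genes next above and below each member in reads give its place among all genes. Mir148a stood between Mir200c (356 CPM) and Mir483 (347 CPM) in replicate 2, and between Mir425 (615 CPM) and Mir615 (581 CPM) in replicate 1. Mir152 stood between Mir501 and Mir1306 in replicate 2, and between Mir666 and Mir15b in replicate 1. Mir148b stood between Mir540 and Mir1981 in replicate 2, and between Mir16-2 and Mir700 in replicate 1. Of these 12 neighbours, 12 had a counting interval that overlapped that of the member, so the exact places are not resolved.

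Taken as a sum, the family had 2030 reads in replicate 2 and 4687 in replicate 1. That is 661 CPM (632 to 690) in replicate 2 and 1051 CPM (1021 to 1082) in replicate 1, or 0.0661% of microRNA reads in replicate 2 and 0.105% in replicate 1. The family's make-up differed between the libraries. Mir148a gave 52.8% of family reads in replicate 2 (50.6 to 54.9%) and 58.5% in replicate 1 (57.0 to 59.9%). Mir152 gave 35.5% (33.4 to 37.6%) in replicate 2 and 33.9% (32.6 to 35.3%) in replicate 1. Mir148b gave 11.8% (10.4 to 13.3%) in replicate 2 and 7.62% (6.87 to 8.41%) in replicate 1.

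**Figure D2:**
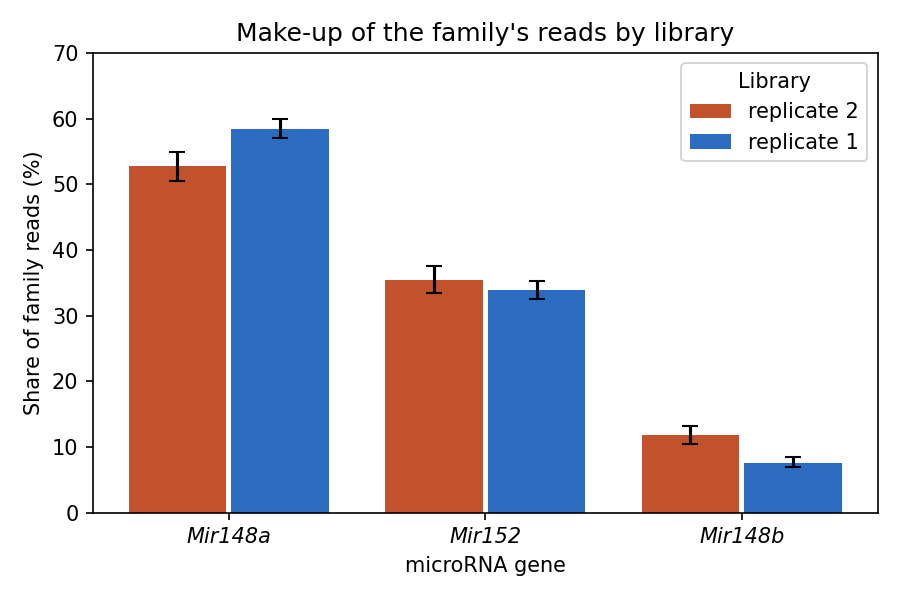
Share of the family's reads from each member, in percent, with replicate 2 left of replicate 1 and exact 95% intervals. Mir148b takes a larger share of the family in replicate 2 (11.8%) than in replicate 1 (7.62%), Mir148a a smaller one, and the intervals of Mir152 overlap.

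These shifts inside the family need no library size, so they do not depend on how the libraries are scaled. The ratio of Mir148a to Mir148b reads was 4.48 in replicate 2 and 7.68 in replicate 1, an odds ratio of 0.584 (95% interval 0.487 to 0.701, adjusted p = 1.91e-08 by Fisher's exact test). The ratio of Mir148b to Mir152 reads was 0.332 in replicate 2 and 0.225 in replicate 1, an odds ratio of 1.48 (1.22 to 1.79, adjusted p = 7.31e-05 by Fisher's exact test). Between Mir148a and Mir152 the ratio was 1.49 in replicate 2 and 1.72 in replicate 1, an odds ratio of 0.863 (0.770 to 0.968, adjusted p = 0.0108 by Fisher's exact test). The tests are two-sided and adjusted over the 3 pairs with the Benjamini-Hochberg method. They compare the reads of 2 libraries and measure departure from counting noise, not a difference between conditions, for which there are no replicates.

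Between libraries, Mir148a and Mir152 were lower in replicate 2 and Mir148b did not pass the threshold. Library sizes were scaled by the trimmed mean of M values (TMM), and a gene was called with an adjusted p under 0.05 in the exact binomial test and at least a 2-fold difference. Mir148a had a log2 ratio of −1.44 (95% counting interval −1.55 to −1.34), which is 2.72-fold lower in replicate 2 (adjusted p = 3.51e-189 by the exact binomial test). Mir152 had a log2 ratio of −1.23 (−1.36 to −1.10), 2.35-fold lower (adjusted p = 1.07e-86 by the same exact test). Mir148b stood at −0.67 (−0.91 to −0.43), with an adjusted p of 4.02e-08 in the exact binomial test but under the 2-fold threshold. Scaled by total reads, Mir148b stood at −0.04 with an adjusted p of 0.771 in the exact binomial test. The family sum had a log2 ratio of −1.30 (−1.37 to −1.22).

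Calls of this kind were common. Of 410 genes tested, 148 were lower in replicate 2 (36.1%) and 72 were higher (17.6%), so the 2 of 3 members that were lower stand beside a background of 36.1% of genes called the same way. Under DESeq2 size factors 101 genes were higher and 127 lower. Scaled by total reads, 135 were higher and 115 lower. Of the tested genes, 31.2% had a lower ratio than Mir148a, 32.9% a lower one than Mir152 and 45.4% a lower one than Mir148b. Over all tested genes the median log2 ratio was −0.33, and relative to it Mir148a stood at −1.11, Mir152 at −0.90 and Mir148b at −0.33. A change of scaling alone shifts all genes alike, by 0.28 for DESeq2 size factors and 0.63 for total reads, and leaves these distances as they are. The choice of genes moved them, to −0.90 for Mir148a, −0.69 for Mir152 and −0.12 for Mir148b with at least 100 reads per gene, and to −1.29 for Mir152, −0.72 for Mir148b and −1.35 for the family sum without Mir206 and the Dlk1-Dio3 genes. The calls moved with the scaling. With DESeq2 size factors Mir148a was still called (−1.16) and Mir152 was not (−0.95), and with total reads neither Mir148a (−0.82) nor Mir152 (−0.60) was. With the spread of the pair itself as error, the edgeR exact test called 0 of 410 genes, 28 had an unadjusted p under 0.05, and the adjusted p of each member was 1. That spread was estimated from the same pair and holds the difference under test.

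**Figure D3:**
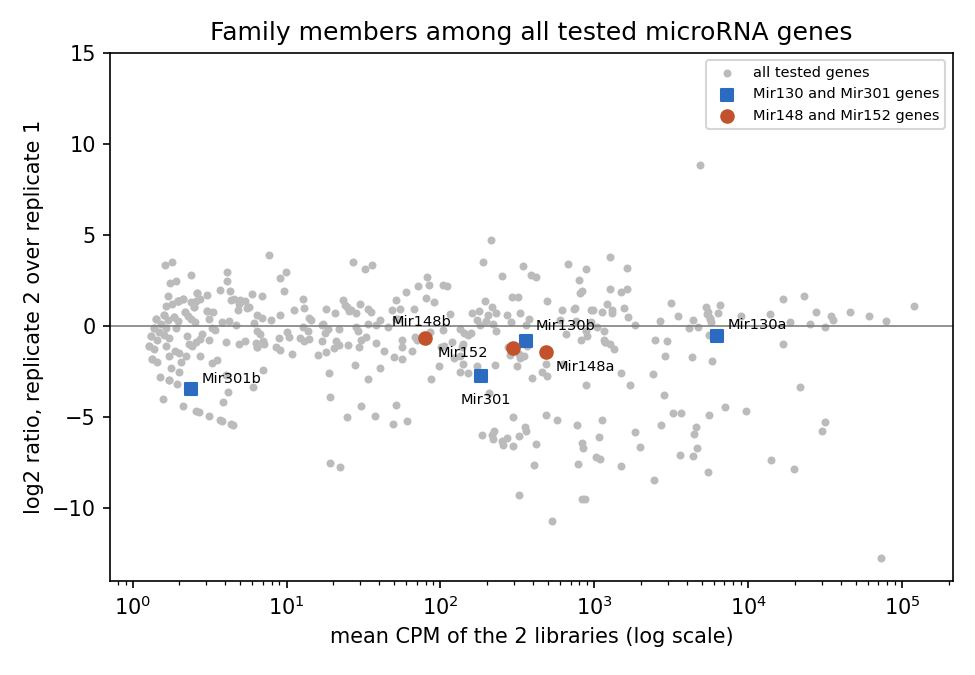
Log2 ratio of replicate 2 over replicate 1 against the mean CPM of the libraries (log scale), for 410 tested genes in grey, with members as circles and Mir130 and Mir301 genes as squares. The members, at −1.44, −1.23 and −0.67, sit inside the bulk of the genes, and Mir301 lies below them.

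**Figure D4:**
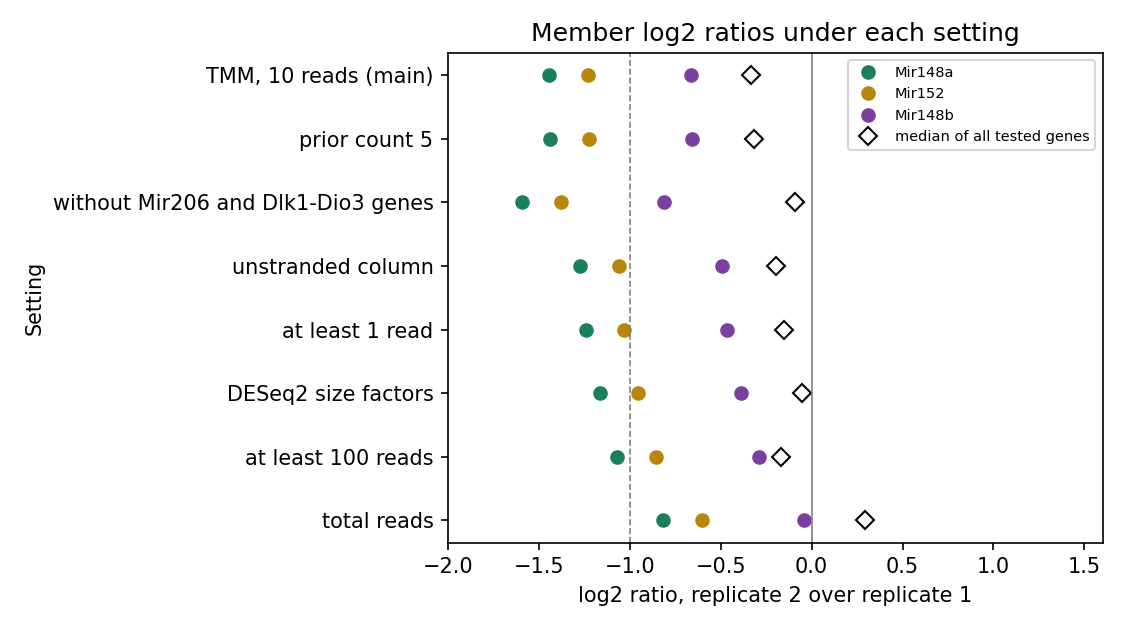
Log2 ratio of each member (circles) and the median of all tested genes (diamonds) under 8 settings, with a dashed line at the 2-fold threshold of −1. All 3 members keep a negative ratio, though that of Mir148b is −0.04 with total reads, while Mir152 crosses the threshold and, with total reads, so does Mir148a.

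The lower reads of Mir148a and Mir152 stood in the library with fewer reads of Mir206, of fibroblast and neural markers and of Mir122. The same library had more reads of Mir208a and of the white blood cell, erythroid, endothelial, smooth muscle, epithelial and pancreatic lists. Without Mir200c the epithelial list had fewer reads in replicate 2 (711) than in replicate 1 (903). Of the pancreatic reads, Mir375 gave 145 of 150 in replicate 2 and 58 of 76 in replicate 1. Mir223, Mir203 and Mir217 of these lists had fewer reads in replicate 2. In the neural list Mir219a-1 was higher, with 25 reads in replicate 2 and 8 in replicate 1, and Mir138-2 was not called. Mir122, the liver microRNA, had 269 reads in replicate 2 and 1152 in replicate 1, a log2 ratio of −2.18. Of the 4 liver genes, Mir122 was lower and 1 was higher. The part of these cell types in the members' ratios was not tested, and in whole tissue fewer cells of a type and less RNA per cell cannot be told apart. Of the members inside coatomer genes, Mir152 in Copz2 had the lower log2 ratio and Mir148b in Copz1 the higher, and the odds ratio of the pair gives the size of that difference. RNA of the host genes was not analysed here.

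The nearest other genes by log2 ratio, among 83 with at least 1000 reads in each library, were sought for each member. For Mir148a they were Mir542 (−1.29), Mir21a (−1.67) and Mir214 (−1.68), all within 0.24 of its own ratio. For Mir152 they were Mir542, Mir322 (−1.02) and Mir676 (−1.01), within 0.22. For Mir148b they were Mir17 (−0.75), Mir872 (−0.75) and Mir324 (−0.77), within 0.10. This likeness is over 2 libraries only.

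A second set of microRNAs carries the family's 7 seed bases shifted by 1, at bases 1 to 7, so that their own seed overlaps with it. The RefSeq table holds 7 such mature sequences, of Mir130a, Mir130b, Mir130c, Mir301, Mir721, Mir6341 and Mir6389. The 3 with counted reads are shown with the shared bases in capitals.
mmu-miR-130a-3p: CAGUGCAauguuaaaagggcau
mmu-miR-130b-3p: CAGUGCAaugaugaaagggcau
mmu-miR-301a-3p: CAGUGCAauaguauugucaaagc
Mir130a, reported to promote vessel growth, was far more abundant than any member, with 19854 reads in replicate 2 and 27047 reads in replicate 1. It stood at a log2 ratio of −0.54. Mir130b had 1028 reads in replicate 2 and 1692 in replicate 1, a log2 ratio of −0.81. Mir301, the gene of miR-301a, was counted 207 times in replicate 2 and 1340 times in replicate 1, and was lower in replicate 2 with a log2 ratio of −2.78. Mir130c, Mir721, Mir6341 and Mir6389 had 0 reads in both libraries, which allows up to 0.976 CPM in replicate 2 and 0.673 CPM in replicate 1. A list of Mir130 and Mir301 family genes, with Mir721, had 5 annotated members, of which 4 were tested, 2 were lower (Mir301 and Mir301b) and 0 were higher, with a median log2 ratio of −1.79, beside 36.1% lower and 17.6% higher over all tested genes. Mir301b, whose 3p sequence was not matched in the table, was counted 1 time in replicate 2 and 20 times in replicate 1, and the counting interval of its log2 ratio ran from −9.78 to −1.77.

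Other microRNAs reported to act on the same processes are read against the background of 36.1% of tested genes lower and 17.6% higher. Of 8 tested microRNA genes reported, like the family, to target DNA methyltransferase genes, 2 were higher in replicate 2, Mir29a at 2.69 and Mir185 at 2.52, and 0 were lower, with a median log2 ratio of 0.65 against −0.33 over all tested genes. With DESeq2 size factors 4 were higher and with total reads 5. Both counts hold Mir29b-1, with 22 reads in replicate 2 and 11 in replicate 1. Mir29b-1 and Mir29b-2 share a mature sequence, so their counts are uncertain. The 3 most abundant of the 8, Mir126a (0.75), Mir143 (0.54) and Mir342 (−0.27), did not pass the threshold under TMM. Mir126a did with DESeq2 size factors (1.03). Scaled by total reads, so did Mir126a (1.38) and Mir143 (1.17). Of 9 microRNA genes of cholesterol and lipoprotein control, 5 were lower, Mir122 and Mir128-1 (−2.11) among them, and 2 were higher, with Mir27b at 0.32, Mir130b at −0.81 and a median log2 ratio of −1.16. The 2 higher ones, Mir30c-1 and Mir30c-2, share a mature sequence, as do Mir128-1 and Mir128-2, so their counts are uncertain. With either other scaling 3 of the 9 were lower.

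Of 22 microRNA genes of myogenic differentiation other than Mir148a, 21 were tested, 9 were lower in replicate 2 and 5 higher, beside 36.1% lower and 17.6% higher over all tested genes, with a median log2 ratio of 0.30. Mir206 was lower at −12.73 and Mir322, linked to cell cycle exit, at −1.02, a call that neither other scaling gave (−0.74 under DESeq2 size factors, −0.39 under total reads), while Mir378a, hosted by the metabolic gene Ppargc1b, was higher at 1.12. Under DESeq2 size factors 7 were higher and 5 lower, and under total reads 9 and 4. Several genes of this list, the Mir24, Mir26a and Mir181a copies, share a mature sequence with another locus, so their counts are uncertain. Mir1a-2, Mir133a-1, Mir133a-2, Mir378a and Mir486 were not matched among the RefSeq sequences. Shared sequences were thus not checked for Mir378a, Mir486 and the Mir1a and Mir133a genes.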

How the data were processed

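Small RNA reads of 2 libraries were analysed from read counts per microRNA gene that the authors deposited, with columns for both strands, the sense and the antisense strand. Assembly mm10 and annotation M21 are named per the file headers of the deposited descriptions; no aligner, version or trimming step is given in the sources used here. All 2202 identifiers were matched to GENCODE M21. The 4 summary lines, which name no gene, were left out of all totals and held 57.6% of reads in replicate 2 and 47.7% in replicate 1. Other samples' columns numbered 0.

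Log2 ratios have a prior count of 1 and TMM sizes from edgeR 4.0.16 in R 4.3.3, over genes with at least 10 reads in total. Each gene had a two-sided exact binomial test with Benjamini-Hochberg adjustment over all 410 genes, which measures counting noise only. Alternatives used DESeq2 1.42.0 size factors, total reads, other minimum counts, a prior count of 5, the unstranded column, the totals without Mir206 and the Dlk1-Dio3 genes, and the edgeR exact test. Tested on simulated Poisson counts of 403 genes for this comparison, the binomial test called 76 of 95 genes set to a log2 ratio of 1.5, 103 of 105 set to 3 and 1 of 203 unchanged. The simulated counts held counting noise only. They cannot show how often the test calls genes under the spread of a real pair. The limit that a count of 0 allows is 3 counts. Named genes are the members, their nearest genes by rank and by ratio, and up to 3 of each list by mean share; others were chosen after their values were seen. Members, lists and tests were chosen with earlier results of these data known. Python 3.11.15, scipy 1.17.1, numpy 2.4.6 and pandas 2.3.3 were used.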

Additional observations from a re-analysis of the deposited data

How the results depend on the processing

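The 7 alternatives that could change a ratio left all 3 member ratios negative, though that of Mir148b came to −0.04 with total reads (adjusted p = 0.771 by the exact binomial test) and −0.29 at 100 reads. Mir148a was no longer called with total reads (−0.82) or by the edgeR exact test (ratio −1.44, adjusted p = 1), and Mir152 was not called with DESeq2 size factors (−0.95), total reads (−0.60), at least 100 reads per gene (−0.86) or the edgeR exact test (−1.23, adjusted p = 1). Mir148b stayed under the 2-fold threshold in each. The ratio of the family sum moved to −1.02 with DESeq2 size factors, −0.67 with total reads, −1.44 without Mir206 and the Dlk1-Dio3 genes, −1.12 in the unstranded column, −0.92 at 100 reads and −1.10 at 1 read. Without Mir206 and the Dlk1-Dio3 genes in the totals, mean CPM was 762 for Mir148a, 458 for Mir152 and 116 for Mir148b, and in the unstranded column that of Mir148b was 99.6. Without replicate 1 or without replicate 2, mean CPM ranged from 349 to 615 for Mir148a, from 234 to 357 for Mir152 and from 77.8 to 80.1 for Mir148b. Genes higher in replicate 2 numbered 135 with total reads, and genes lower numbered 98 at 100 reads, where 266 genes were tested; both counts were 0 by the edgeR exact test. The unstranded counts of the members equal the sense counts but for 1 read of Mir152, so they could not test the odds ratios and family shares. No paired analysis was possible because the labels give a single group. With 1 library on each side, no result has a replicate check, and 239 reads in replicate 2 limit the precision for Mir148b.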

Other observations

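The antisense column, which no comparison uses, held 865058 reads in replicate 2 and 537732 in replicate 1 over all microRNA genes. At the family these reads were nearly missing. Mir152 had 1 antisense read in replicate 2 and 0 in replicate 1, and Mir148a and Mir148b had 0 in both libraries, which is under the limit of 3 counts. No annotated gene overlaps a member on the opposite strand. The share of all genes with so few antisense reads was not counted, so this is not shown to be particular to the family. The 7 seed bases of the family occur anywhere in 17 of 1738 mature mouse sequences, of which 3 are the members and 7 carry them at bases 1 to 7.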
